A study of Mus musculus with 23 samples.

Results

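The nuclear receptors Ppara, Ppard, Esrra, Esrrb, Esrrg and Rxra, the coactivators Ppargc1a and Ppargc1b and the transcription factor Nrf1 were followed in the male mouse heart. The genes were chosen by symbol as known regulators of oxidative metabolism, and they are 9 of the 46077 genes in the deposited expression table. RNA was sequenced in 23 libraries, 14 from isolated cardiomyocyte preparations and 9 from whole hearts. Knockout mice were labelled Panx1MyHC6, a genotype in which pannexin 1, an ATP-releasing membrane channel, is deleted through the cardiomyocyte promoter Myh6, and wild-type mice were labelled Panx1fl/fl and carried the floxed gene undeleted. Isoproterenol (ISO), a beta-adrenergic agonist that stresses the heart, was given at 15 mg/kg/day for 14 days, and the controls received saline. The cardiomyocyte groups were knockout ISO (n = 4), wild-type ISO (n = 4), knockout saline (n = 3) and wild-type saline (n = 3). The whole hearts were all from ISO mice, labelled knockout (n = 4) or wild type (n = 5). By its title the series concerns pannexin 1, cardiomyocyte metabolism and neutrophil recruitment in heart failure without ischemia.

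PPAR-alpha and PPAR-delta are fatty acid-activated receptors that bind DNA as partners of RXR and switch on genes of fatty acid uptake and oxidation, the main fuel route of the adult heart. The estrogen-related receptors (ERR-alpha, beta and gamma) have no known natural hormone and drive genes of the tricarboxylic acid cycle and the respiratory chain. PGC-1alpha (Ppargc1a) and PGC-1beta (Ppargc1b) do not bind DNA themselves but are recruited by both receptor families, and by nuclear respiratory factor 1 (Nrf1), so that receptor and coactivator levels together set mitochondrial capacity.

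Values are FPKM, fragments scaled by gene length and library size. The deposited gene lengths of Esrra and Ppard are shorter than their annotated exons by a factor of 1.73 and 1.62, so their levels may be overstated by as much beside those of the other 7 genes, whose deposited lengths equal the annotated ones. Ratios of 1 gene's FPKM between libraries do not depend on its length. Differences in log2(FPKM + 1), on which the tests below rest, and a filter at 1 FPKM do depend on it. The tests used the deposited lengths. Reads assigned to genes numbered 21 to 31.9 M in cardiomyocyte libraries and 28.9 to 39.6 M in whole hearts. Mitochondrially encoded genes took 46.8 to 80.0% of them in cardiomyocyte libraries and 16.7 to 25.4% in whole hearts. Among ISO cardiomyocytes the knockout share was the lower, 46.8 to 69.3% against 75.6 to 79.3% for the wild type. After saline the knockout share was the higher, 69.3 to 80.0% against 55.3 to 65.0%. The genotypes thus did not overlap in this share under either treatment. Its part in the genotype differences was not tested beyond the scaling alternatives given below. Panx1 measured 0.948 to 1.22 FPKM in knockout against 1.24 to 1.89 in wild-type ISO cardiomyocytes, and 1.28 to 2.0 in knockout against 1.57 to 2.89 in wild-type saline cardiomyocytes, where the ranges overlapped. In whole hearts it went against the labels, with 0.469 to 0.915 FPKM in hearts labelled knockout and 0.338 to 0.512 in hearts labelled wild type, so those groups are named by label throughout. The summed level of 10 cardiomyocyte marker genes was 1266 to 12424 FPKM in cardiomyocyte preparations and 8636 to 18255 FPKM in whole hearts, with no marker at 0. The summed level of 5 erythroid markers was 5567 to 69744 FPKM in cardiomyocyte preparations and 42.9 to 584 FPKM in whole hearts. Erythroid message was thus higher in every preparation than in any whole heart, and cardiomyocyte message was lower in most, with 3 of the 14 preparations (12424, 9185 and 9008 FPKM) above the lowest whole heart. As in any bulk sample, fewer cells of a type and less RNA per cell cannot be told apart.

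Esrra (chr19:6910977-6921813, minus strand) and Ppargc1a (chr5:51454250-51567726, minus strand) are the receptor and coactivator on which most of the results below turn. The 250 bases before their RefSeq start sites (GRCm38.p6) are shown because both genes were highest in the same 3 cardiomyocyte libraries. This was not particular to the pair, since Esrrb and Esrrg were highest in the same 3 libraries, which were also highest in cardiomyocyte markers. The windows shown span chr19:6921809-6922058 for Esrra and chr5:51567726-51567975 for Ppargc1a, both read on the minus strand. Capitals mark a match to the NRF1 half-site TGCGCA in Esrra and, in Ppargc1a, CGTCA, which is the cAMP half-element TGACG on the opposite strand. The other sequences searched on both strands were the ERR response element TNAAGGTCA, the nuclear receptor half-site AGGTCA that it contains, and the full cAMP response element TGACGTCA, which contains TGACG.
Esrra: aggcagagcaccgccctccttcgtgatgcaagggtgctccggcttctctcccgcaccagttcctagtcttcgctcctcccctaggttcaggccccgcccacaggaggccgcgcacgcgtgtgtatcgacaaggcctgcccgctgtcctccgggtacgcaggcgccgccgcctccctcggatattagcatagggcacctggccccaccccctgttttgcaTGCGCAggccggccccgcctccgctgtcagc
Ppargc1a: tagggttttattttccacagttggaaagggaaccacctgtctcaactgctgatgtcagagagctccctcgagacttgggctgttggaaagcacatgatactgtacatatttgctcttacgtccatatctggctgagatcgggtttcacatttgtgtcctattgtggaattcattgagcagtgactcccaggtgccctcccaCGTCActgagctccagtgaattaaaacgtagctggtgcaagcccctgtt
The Esrra match lies at positions -31 to -26 from the start site and the Ppargc1a match at -49 to -45. Of 32851 RefSeq mouse promoters of the same length, 6.43% held TGCGCA, 17.8% TGACG, 14.0% AGGTCA, 1.55% TGACGTCA and 1.14% TNAAGGTCA. Among the other genes searched, a window of Rxra held AGGTCA on both strands, and windows of Esrrb and Ppara held TGACG. No window of Ppargc1b was searched. These matches describe the letters in the window and do not show binding.

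Among the PPAR partners, Rxra (chr2:27676440-27762957), the obligate dimer partner, was the most abundant in cardiomyocyte preparations, followed by Ppard (chr17:28232754-28301469), and Ppara (chr15:85734983-85802819) was close to the limit of 1 FPKM. Ppara measured 0.938, 0.785, 0.932 and 0.870 FPKM in knockout ISO and 0.558, 0.369, 1.27 and 1.44 FPKM in wild-type ISO cardiomyocytes. In saline it measured 0.957, 0.745 and 0.815 FPKM in knockout and 0.435, 0.623 and 1.07 FPKM in wild-type cardiomyocytes. Knockout libraries were tightly grouped while wild-type libraries spread on both sides of them, so the groups overlapped. These values rest on 15 to 125 recovered reads per library, and only 3 of the 14 libraries reached 1 FPKM. In whole hearts Ppara stood at 3.99, 6.87, 6.40 and 11 FPKM in those labelled knockout and 8.16, 10.4, 8.61, 4.04 and 9.42 FPKM in those labelled wild type.

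Ppard, the more widely expressed PPAR, varied little, from 2.59 to 4.85 FPKM over all cardiomyocyte libraries and from 3.52 to 5.71 FPKM over whole hearts. Rxra measured 10.4, 8.50, 10.9 and 9.90 FPKM in knockout ISO and 12, 12.1, 10.1 and 11.5 FPKM in wild-type ISO cardiomyocytes. It measured 7.09, 8.95 and 9.09 FPKM in knockout saline and 5.51, 8.02 and 10.3 FPKM in wild-type saline cardiomyocytes. In whole hearts Rxra spanned 7.39 to 10.4 FPKM under the knockout label and 10.2 to 11 FPKM under the wild-type label. The levels of Rxra and of Ppard thus overlapped between cells and whole hearts.

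**Figure D1:**
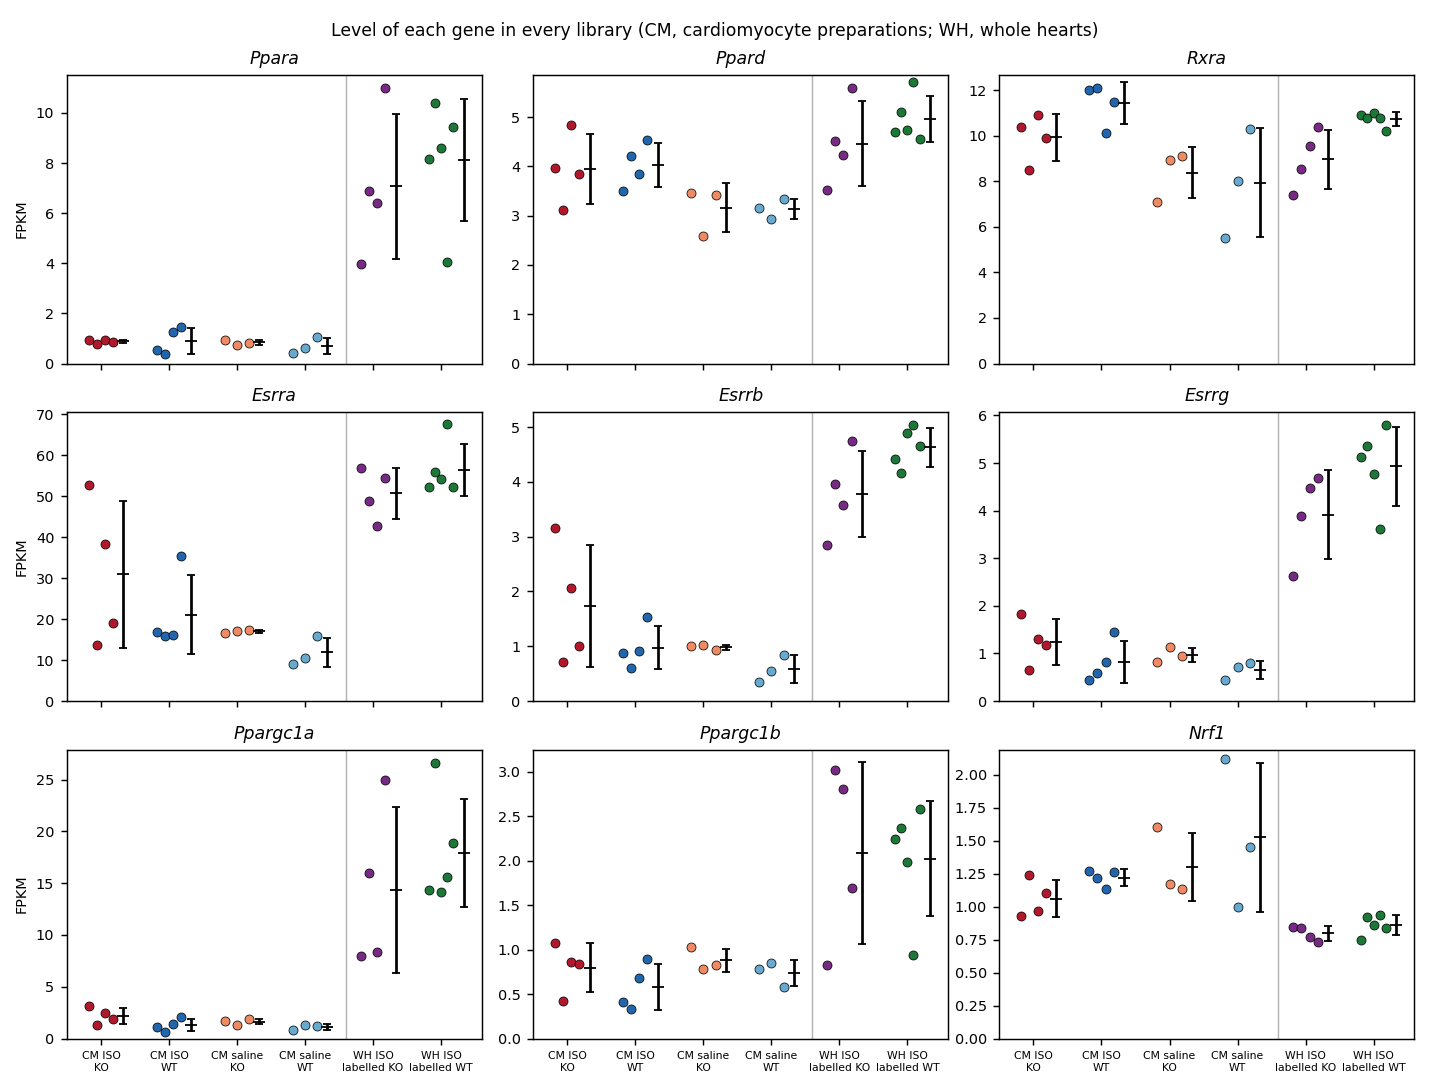
FPKM (y axis, from 0) of each of the 9 genes in every library, by group (x axis); points are libraries and the bar beside them is the mean with its SD. Ppara and Ppargc1a sit lower in every cardiomyocyte preparation (CM) than in any whole heart (WH), the ERR genes are lower in most, Rxra and Ppard overlap, and Nrf1 is higher in most CM libraries.

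ERR-alpha carried most of the ERR message in every library. Esrra measured 52.7, 13.6, 38.4 and 19.0 FPKM in knockout ISO and 16.9, 15.9, 16.1 and 35.5 FPKM in wild-type ISO cardiomyocytes. It measured 16.6, 17.1 and 17.4 FPKM in knockout saline and 9.15, 10.5 and 15.9 FPKM in wild-type saline cardiomyocytes. A pair of knockout ISO libraries and a single wild-type ISO library stood far above the rest, and in saline all 3 knockout libraries lay above all 3 wild-type libraries. Whole hearts held 42.8 to 56.9 FPKM under the knockout label and 52.2 to 67.6 FPKM under the wild-type label. Part of Esrra's exons, 73 bases or 1.66%, overlaps the opposite-strand gene Trmt112, whose level reached at most 12.8 FPKM, and the use of strand in counting is not stated.

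Esrrb (chr12:86361117-86521628) and Esrrg (chr1:187608791-188214885) were far lower. ERR-gamma is known for its role in the oxidative metabolism of heart and slow muscle, and ERR-beta for its role in stem cells and placenta. Esrrb averaged 1.74 ± 1.11 FPKM in knockout ISO and 0.976 ± 0.393 FPKM in wild-type ISO cardiomyocytes (SD, n = 4 each), and 0.983 ± 0.0485 FPKM in knockout saline and 0.582 ± 0.251 FPKM in wild-type saline cardiomyocytes (SD, n = 3 each). Esrrg averaged 1.24 ± 0.483 FPKM in knockout ISO and 0.824 ± 0.435 FPKM in wild-type ISO cardiomyocytes (SD, n = 4 each), and 0.970 ± 0.153 FPKM in knockout saline and 0.651 ± 0.186 FPKM in wild-type saline cardiomyocytes (SD, n = 3 each). The 2 minor receptors were at like levels, and which of them was higher differed between libraries. Esrra exceeded Esrrg 14.6- to 37.5-fold within single cardiomyocyte libraries and 9.01- to 21.8-fold within single whole hearts, or 8.46- to 21.7-fold and 5.21- to 12.6-fold with the exon length.

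The inducible coactivator Ppargc1a measured 3.11, 1.32, 2.51 and 1.92 FPKM in knockout ISO and 1.14, 0.659, 1.38 and 2.08 FPKM in wild-type ISO cardiomyocytes. It measured 1.71, 1.34 and 1.86 FPKM in knockout saline and 0.806, 1.28 and 1.24 FPKM in wild-type saline cardiomyocytes. All 3 knockout saline libraries lay above all 3 wild-type saline libraries, while the ISO groups overlapped. In whole hearts it reached 7.92, 16, 8.4 and 25.0 FPKM under the knockout label and 14.3, 26.6, 14.1, 15.6 and 18.9 FPKM under the wild-type label.

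The other coactivator, Ppargc1b (chr18:61298136-61400431), ranged from 0.331 to 1.07 FPKM in cardiomyocytes, on as few as 14 recovered reads. In whole hearts it ranged from 0.826 to 3.02 FPKM. Too few cardiomyocyte libraries reached 1 FPKM for it to enter the tests within cardiomyocytes. Nrf1 (chr6:30047988-30153458), an activator of nuclear genes for respiratory chain subunits, ranged from 0.930 to 2.12 FPKM in cardiomyocytes and from 0.732 to 0.934 FPKM in whole hearts. Nrf1 reached its highest levels in saline libraries, with 1.60 FPKM in a knockout and 2.12 FPKM in a wild-type library.

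Ordered by mean level, knockout ISO cardiomyocytes had Esrra first at 30.9 FPKM, then Rxra at 9.93, Ppard at 3.94 and Ppargc1a at 2.21 FPKM, with no overlap between neighbours in that run. Esrrb, Esrrg, Nrf1, Ppara and Ppargc1b followed, with means between 0.796 and 1.74 FPKM, and each overlapped the gene before it. In the other cardiomyocyte groups Esrra, Rxra and Ppard again came first in that order, and in wild-type saline Esrra and Rxra overlapped. With the annotated exon length and the same reads, an alternative chosen after seeing the data, Esrra averaged 6.86 FPKM in wild-type saline, below Rxra at 7.94, and Esrra and Rxra overlapped in both ISO groups too. Ppard then averaged 2.43 FPKM in knockout ISO and overlapped Ppargc1a there. In whole hearts Ppargc1a took the second place, at 14.3 FPKM under the knockout label and 17.9 FPKM under the wild-type label, with Rxra and Ppara next and Nrf1 last. In whole hearts the exon length set Ppard, at 2.75 FPKM under the knockout label and 3.06 FPKM under the wild-type label, below Esrrg and Esrrb.

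Differences were tested with limma on log2(FPKM + 1) over all genes that passed a filter, and a gene was called at a Benjamini-Hochberg adjusted p below 0.05. On this scale the change of a gene with low FPKM is understated. Nothing states that libraries of a group came from separate mice, so the p-values measure the spread between libraries.

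Knockout and wild-type cardiomyocytes under ISO did not differ detectably in any of the 8 regulators tested. None of the 8 members tested was called, against a background of 0.0% of 11919 genes (0 genes; 739 at an unadjusted p below 0.05, and 0 called by limma-voom on recovered reads). Ppargc1a had the largest ratio of difference to error, 0.48 ± 0.20 (log2 difference ± SE; adjusted p = 0.797 by limma), with 3 of 4 knockout libraries above 3 of 4 wild-type libraries. Esrra differed by 0.42 ± 0.38, Esrrb by 0.40 ± 0.24 and Esrrg by 0.30 ± 0.19, and Rxra by -0.19 ± 0.17. Ppara, Ppard and Nrf1 lay within 1 SE of 0. None of the 8 was free of overlap between the groups, where 3.34% of all genes were.

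The cardiomyocyte markers moved with these values. Their mean log2 level was 8.96, 6.90, 8.51 and 7.57 in knockout ISO and 7.01, 6.90, 7.41 and 8.49 in wild-type ISO cardiomyocytes, and all 10 markers had positive differences with none called. The 3 libraries highest in markers, PNXM654 and PNXM655 of the knockout and PNXM648 of the wild type, were also the 3 highest of the 14 in Esrra, Esrrb, Esrrg and Ppargc1a. Of the 3 highest libraries in Ppara and in Rxra 1 was among them, and in Nrf1 0. With the marker level as covariate, an alternative chosen after seeing the data, the difference was -0.02 ± 0.15 for Esrra and 0.25 ± 0.11 for Ppargc1a (adjusted p = 0.817 by limma). Without the 3 libraries it was -0.02 ± 0.22 for Esrra and 0.35 ± 0.20 for Ppargc1a. Those 3 libraries were also the highest in both genes, so leaving them out had to lower the means of both genotypes. The knockout lost PNXM654 and PNXM655, and the wild type only PNXM648. The smaller differences therefore do not separate marker content from genotype. All 9 neutrophil, all 8 lymphocyte and all 5 erythroid markers had negative differences between knockout and wild-type ISO cardiomyocytes, with none called. So did all 9 fibroblast and all 4 atrial markers tested and 8 of 9 macrophage markers. Positive differences were seen for 6 of 10 endothelial and 6 of 8 smooth muscle and pericyte markers, again with none called. The part of these cell types in the result was not tested.

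**Figure D2:**
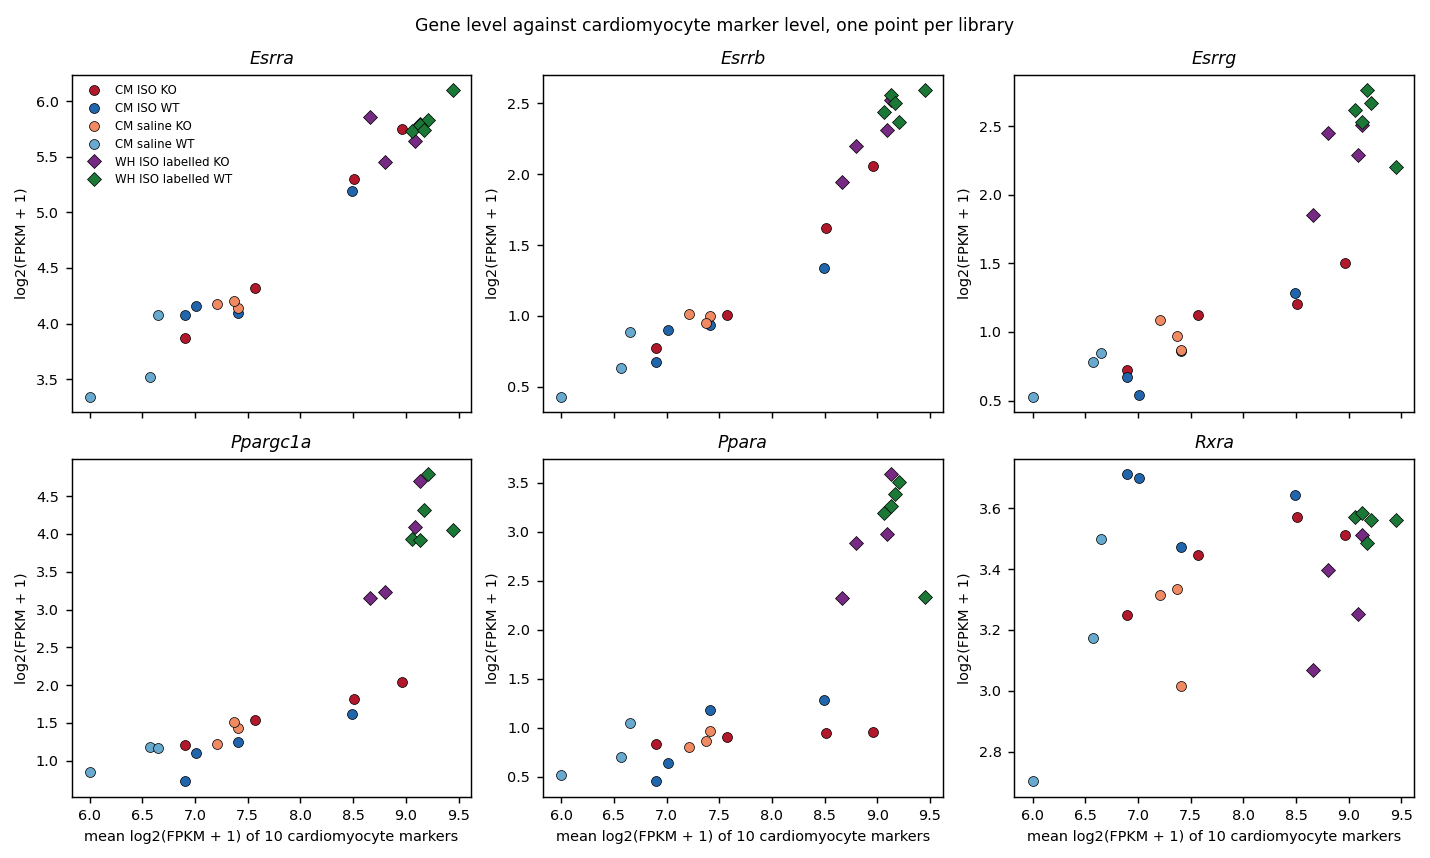
Level of 6 regulators as log2(FPKM + 1) (y axes) against the mean log2(FPKM + 1) of 10 cardiomyocyte markers (x axis); each point is a library, circles are cardiomyocyte preparations (CM) and diamonds whole hearts (WH). Esrra runs along one band through cells and whole hearts, Ppargc1a and Ppara stand higher in whole hearts than in the 3 cardiomyocyte libraries of nearest marker level, and Rxra shows no such ordering.

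After saline, knockout cardiomyocytes had the higher values of Esrra, Esrrb, Esrrg and Ppargc1a in all libraries, but the differences did not pass the test. These 4 of the 8 members tested did not overlap between the groups, against 14.7% of all genes. The exact permutation test of 3 against 3 libraries cannot go below p = 0.1, which all 4 reached (two-sided, adjusted p = 0.266 over 63 such tests). By limma none of the 8 was called, as for 0.0% of the 11919 genes (421 at an unadjusted p below 0.05, none of them a member, and 0 called by limma-voom). Esrra differed by 0.53 ± 0.43, Esrrb by 0.34 ± 0.28, Ppargc1a by 0.33 ± 0.23 and Esrrg by 0.26 ± 0.22 in log2. The marker means did not overlap either, spanning 7.21 to 7.41 in the knockout and 6.0 to 6.65 in the wild type. With the marker level as covariate the 4 differences were -0.25, -0.14, -0.07 and -0.08. Because the marker means did not overlap, the covariate cannot separate marker content from genotype in saline.

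Averaged over saline and ISO, the knockout difference was largest relative to its error for Ppargc1a, at 0.40 ± 0.15 (adjusted p = 0.55 by limma), and with the marker covariate it was 0.09. Again none of the 8 members was called, beside 0.0% of all genes (1045 at an unadjusted p below 0.05, 0 by limma-voom). The difference of the genotype effect between ISO and saline ran from -0.29 ± 0.26 for Rxra to 0.15 ± 0.31 for Ppargc1a. No member was called there, like 0.0% of all genes (294 at an unadjusted p below 0.05, 0 by limma-voom).

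**Figure D3:**
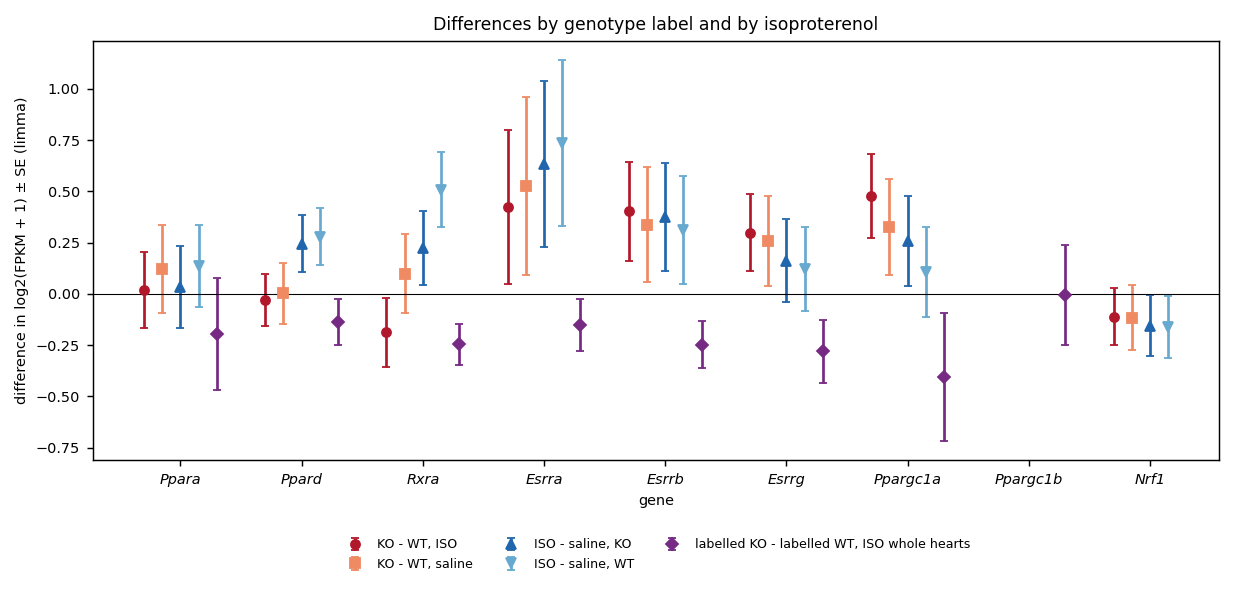
Log2 differences with SE (y axis, limma on log2(FPKM + 1)) for each gene (x axis) in 4 cardiomyocyte comparisons and in whole hearts by label. Ppargc1b has no cardiomyocyte value and Nrf1 no whole-heart value because of the filter; the Ppargc1a point for knockout against wild type under ISO is at 0.48, and none of the points was called.

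ISO against saline gave the higher values of Rxra, Ppard and Esrra in cardiomyocytes, none of which passed adjustment. Averaged over genotypes, Rxra differed by 0.37 ± 0.13 (adjusted p = 0.0925), Ppard by 0.26 ± 0.10 (adjusted p = 0.103) and Esrra by 0.69 ± 0.29 (adjusted p = 0.124, all by limma). None of the 8 members was called, against 2.22% of all genes (265 of 11919), a count that ran from 1 (without PNXM664) to 1954 (without PNXM656) when 1 library was left out and was 22 with the marker covariate. Leaving out 1 library brought single members to a call, Rxra without PNXM649 (wild-type saline) at 0.46 and Ppard and Esrra without PNXM656 (knockout ISO) at 0.30 and 0.84. With the marker level as covariate the differences were 0.26 for Rxra, 0.13 for Ppard and -0.03 for Esrra. The marker means spanned 6.90 to 8.96 in ISO and 6.0 to 7.41 in saline libraries.

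In wild-type cardiomyocytes the ISO difference was 0.51 ± 0.18 for Rxra (adjusted p = 0.153 by limma), 0.28 ± 0.14 for Ppard and 0.74 ± 0.41 for Esrra. Ppard was the only one of the 8 without overlap between ISO and saline, against 18.8% of all genes, and none was called, against 0.705% (84 genes). In knockout cardiomyocytes Esrra differed by 0.63 ± 0.41, Esrrb by 0.38 ± 0.26 and Rxra by 0.22 ± 0.18. No member was free of overlap there, against 8.15% of all genes, and none was called, like 0.0% of all genes (807 at an unadjusted p below 0.05, 0 by limma-voom). The test of the difference between genotypes in the ISO response of Rxra was that given above.

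Between whole hearts labelled knockout and wild type, none of the 8 members tested was called. Their differences were all at or below 0, those of Ppara and Ppargc1b within 1 SE of it, and the mean of Ppargc1b was 2.09 FPKM under the knockout label and 2.02 FPKM under the wild-type label. The differences ran from -0.41 ± 0.31 for Ppargc1a to -0.01 ± 0.24 for Ppargc1b, and 38.17% of all genes tested were positive there. Rxra differed by -0.25 ± 0.10 (adjusted p = 0.73 by limma), Esrrg by -0.28 ± 0.15 and Esrrb by -0.25 ± 0.11. No member was called or free of overlap, against 0.0% called (652 at an unadjusted p below 0.05, 0 by limma-voom) and 2.38% without overlap of 10189 genes. The 2 hearts lowest in Ppargc1a, PNXM199 and PNXM239 with 7.92 and 8.4 FPKM, were also highest in atrial markers, at a mean log2 level of 9.46 and 8.58 where the other 7 hearts had 1.58 to 6.59, and in adipocyte markers at 4.31 and 3.98. Both hearts carried the knockout label, so leaving them out had to raise the Ppargc1a mean under that label and left it with fewer libraries. Without these 2 hearts, an alternative chosen after seeing the data, Ppargc1a differed by 0.19 ± 0.26 and Rxra by -0.17 ± 0.10. Cardiomyocyte markers had negative differences for 10 of 10 genes in hearts labelled knockout.

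Set against whole hearts, ISO cardiomyocyte preparations were lower in PPAR-alpha, both coactivators and all 3 ERR genes. In wild type by label, Ppargc1a averaged 1.31 ± 0.594 FPKM in cardiomyocytes (SD, n = 4) and 17.9 ± 5.22 FPKM in whole hearts (SD, n = 5), and Ppara 0.910 ± 0.526 against 8.13 ± 2.44 FPKM. The limma difference was -3.03 ± 0.29 for Ppargc1a (adjusted p = 5.59e-07) and -2.25 ± 0.25 for Ppara (adjusted p = 1.72e-06). With a pseudocount of 0.1, which shrinks low values less, the same differences were -3.73 and -3.13. Esrrg fell by 1.72, Esrrb by 1.53, Esrra by 1.45 and Ppargc1b by 0.92 in log2. Nrf1 was called higher by 0.26 ± 0.08, and Ppard (-0.25 ± 0.12, adjusted p = 0.0799) and Rxra (0.08 ± 0.11) were not called. With the scaling between libraries removed, which shifts the median of all genes by -1.04 here, Nrf1 (-0.51) and Ppard (-1.5) were called lower.

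Of the 9 members 6 were thus called lower and 1 higher in wild type, where 35% of 11386 genes were called lower, 28.9% higher and 63.9% in either direction. In both tissue comparisons Nrf1 passed the filter of 1 FPKM in 4 libraries only through the cardiomyocyte preparations, since no whole heart reached 1 FPKM. Ppara and Ppargc1b passed it only through the whole hearts, where they were high. The calls of these genes are therefore not independent of the filter. Without overlap were 8 of the 9, all but Rxra, against 52.1% of all genes. By the exact permutation test each of the 8 reached p = 0.0159, the smallest that 4 against 5 libraries allow (two-sided, adjusted p = 0.125 over 63 tests).

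In knockout by label the same 6 genes were called lower. Ppargc1a averaged 2.21 ± 0.77 FPKM in cardiomyocytes and 14.3 ± 8.02 FPKM in whole hearts, and Ppara 0.881 ± 0.0711 against 7.06 ± 2.90 FPKM (SD, n = 4 each). The limma differences were -2.14 ± 0.31 for Ppargc1a (adjusted p = 6.61e-05), -2.03 ± 0.26 for Ppara (adjusted p = 3.00e-05), -1.14 ± 0.19 for Esrrg and -0.88 ± 0.22 for Esrrb. Those of Esrra, -0.88 ± 0.33 (adjusted p = 0.0428), and Ppargc1b, -0.73 ± 0.23 (adjusted p = 0.019), were near the threshold. The Esrra call was lost in limma-voom (adjusted p = 0.0614), in a fit of only the groups compared (0.101), without a filter (0.0945), without the 2 hearts of high atrial markers (-0.91, 0.111), and without PNXM656, PNXM646, PNXM199, PNXM229 or PNXM242 (0.0732 to 0.161). Esrra differed by -0.56 without PNXM656. Without the 3 cardiomyocyte libraries highest in markers Esrra differed by -1.59 and Esrrb by -1.35, both called. Those 3 libraries were also the 3 highest in both genes, so leaving them out had to widen the difference and adds no support to it. Nrf1 differed by 0.19 ± 0.08 (adjusted p = 0.0572) and was called higher in limma-voom (0.013), with equal totals outside the mitochondrial chromosome (0.0381), without the same 3 libraries (0.0224) and without PNXM654 (0.0366). With the scaling between libraries removed, which shifts the median of all genes by -0.67 here, Nrf1 was instead called lower, at -0.27 (adjusted p = 0.0103 by limma). The Ppargc1b call was lost without a filter (0.0518) and without PNXM656, PNXM229 or PNXM239 (0.0617 to 0.0728). In this comparison 23.1% of all genes were called lower, 19.6% higher and 42.7% in either direction, and 4 of the 9 members (Ppargc1a, Ppara, Esrrg and Nrf1) did not overlap, against 34.3% of all genes.

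The cell type markers also differed between the tissues, and their part in these values was not tested. Cardiomyocyte markers were lower in the preparations for 10 of 10 genes, with 9 called in wild type and 3 in knockout, and endothelial markers were called higher for 9 of 10 in both. Fibroblast markers were called higher for 9 of 9 in wild type and 6 of 9 in knockout, and erythroid markers for 5 of 5 in both. Macrophage markers were called higher for 8 of 9 in both, neutrophil markers for 8 and 5 of 8, lymphocyte markers for 6 of 6 in both, and genes known to be induced by tissue dissociation for 5 and 4 of 9, each in wild type and knockout, with 1 dissociation gene called lower in knockout. Of 8 smooth muscle and pericyte markers 2 were called higher and 4 lower in wild type, and 3 higher and 3 lower in knockout. With the cardiomyocyte marker level as covariate, chosen after seeing the data, Ppargc1a stayed called at -2.14 in wild type and -1.67 in knockout, and Ppara at -1.85 and -1.82. Esrrg (-1.09 and -0.80) and Esrrb (-0.60 and -0.38) also stayed called. Esrra came to -0.02 in wild type (adjusted p = 0.941) and -0.11 in knockout (adjusted p = 0.591), and Ppargc1b to -0.49 and -0.50 (adjusted p = 0.245 and 0.142). Nrf1 in wild type came to 0.16 (adjusted p = 0.252). The mean log2 level of the cardiomyocyte markers itself differed by tissue, at 6.90 to 8.96 in ISO cardiomyocytes and 8.66 to 9.45 in whole hearts. The covariate therefore cannot separate marker content from tissue. The part of the other cell types and of the isolation itself, which all cells and no whole heart underwent, cannot be told apart from the tissue.

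**Figure D4:**
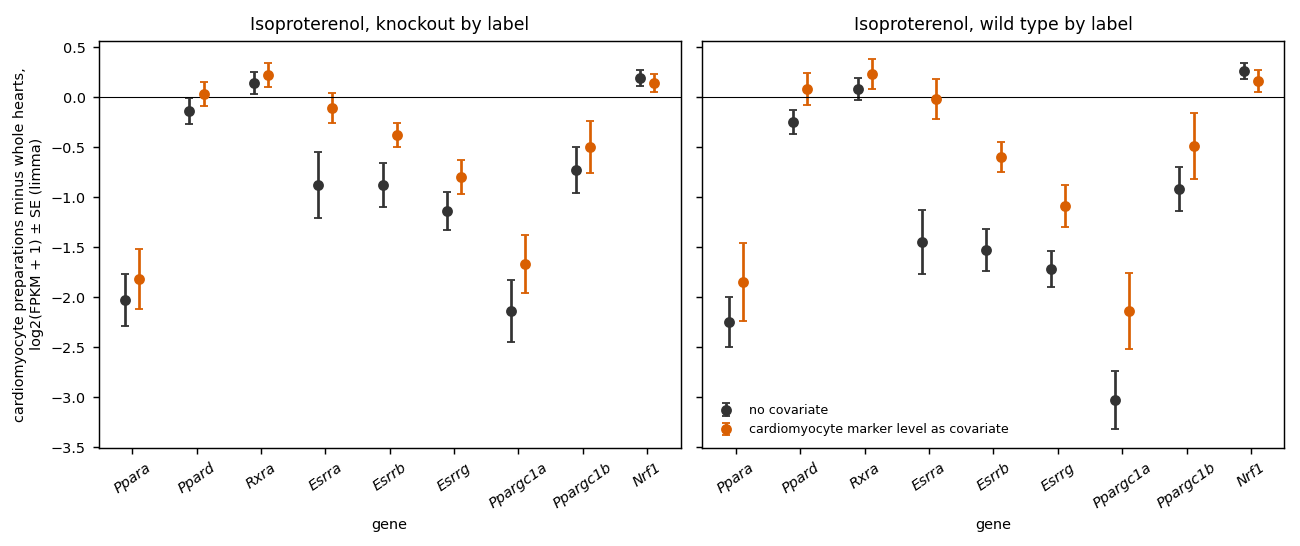
Cardiomyocyte preparations minus whole hearts in log2(FPKM + 1) with SE (y axis, limma) for each gene (x axis), in ISO mice labelled knockout (left) and wild type (right), without (black) and with (orange) the cardiomyocyte marker level as covariate. Ppargc1a keeps -1.67 in knockout and -2.14 in wild type with the covariate, while Esrra comes to -0.11 and -0.02.

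Ratios of 2 genes within a library do not depend on the scaling between libraries. Ppara was 0.0875 to 0.330 of Ppard in the 14 cardiomyocyte libraries and 0.707 to 2.07 of it in the 9 whole hearts, so PPAR-delta message exceeded PPAR-alpha message in every preparation of cells. With the exon length of Ppard these ratios were 0.142 to 0.536 in cardiomyocyte libraries and 1.15 to 3.36 in whole hearts. Rxra exceeded Ppara 7.41- to 32.6-fold in cardiomyocyte libraries, against 0.947- to 2.67-fold in whole hearts. Ppargc1a relative to its receptor Esrra was 0.0414 to 0.123 in cardiomyocyte libraries and 0.139 to 0.475 in whole hearts. These 3 ratios did not overlap between tissues. The ratio of the coactivators, Ppargc1a over Ppargc1b, was 1.03 to 3.16 in cells and 2.99 to 16.6 in whole hearts and overlapped at its edges. The ratios were chosen with the levels known and are given without a test.

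**Figure D5:**
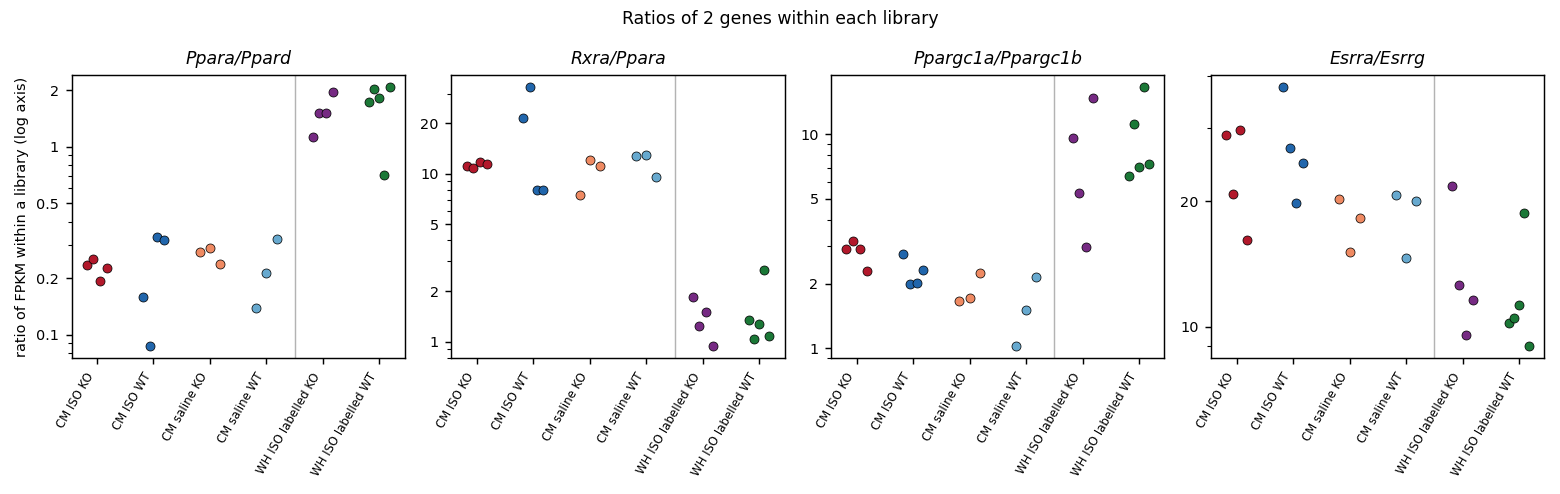
Ratio of FPKM of 2 genes within each library (y axes, log scale) by group (x axis); each point is a library. Ppara/Ppard is at most 0.330 in cardiomyocyte preparations (CM) and at least 0.707 in whole hearts (WH), and Rxra/Ppara at least 7.41 in CM and at most 2.67 in WH.

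Genes known to be driven by these regulators differed between tissues in the same direction. Of 24 ERR and PGC-1 target genes tested, all 24 were called lower in wild-type cardiomyocytes than in whole hearts, with a median difference of -2.01 against -0.10 over all genes, and 20 in knockout, with a median of -1.25 against -0.06. The mitochondrial creatine kinase Ckmt2 differed by -2.67 in wild type and -1.59 in knockout, citrate synthase Cs by -2.13 and -1.33, and the isocitrate dehydrogenase subunit Idh3a by -2.28 and -1.56, all called. Of 28 PPAR targets tested, 23 were called lower and 1 higher in wild type (median -1.78), and 16 lower and 1 higher in knockout (median -0.98). Pdk4, which holds back glucose oxidation, fell by 3.09 in wild type and by 2.15 in knockout. Acsl1, which activates fatty acids, differed by -2.74 and -1.80, and Acadm, a beta-oxidation enzyme, by -2.50 and -1.47, all called. The gene called higher was the uncoupling protein Ucp2 in wild type (1.97), and the secreted lipase inhibitor Angptl4 in knockout (1.26). The median over the 10 cardiomyocyte markers in the same comparisons was -1.59 in wild type and -0.76 in knockout, and its part in the target genes was not tested.

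Among the 9 partner receptors and factors, Pparg, the PPAR of fat cells and macrophages, was called higher in cardiomyocyte preparations, by 0.52 in wild type and 0.73 in knockout, and so was Gabpb1 by 0.25 and 0.31. Rxrg, the muscle RXR, was called lower in wild type (-1.76), as were Gabpa (-0.65), Tfam, the mitochondrial DNA packaging factor (-0.87 in wild type and -0.43 in knockout), the muscle PGC-1 and ERR partner Perm1 (-2.19 and -1.28) and the PGC-1 partner Lpin1 (-2.25 and -1.51). In knockout 2 of the 9 partners were called higher and 3 lower. Of the coregulators 46.67% were called in wild type and 13.33% in knockout, and of the upstream regulators 63.64% and 36.36%, which is near or below the 63.9% and 42.7% of all genes. Of 15 coregulators 3 were called higher and 4 lower in wild type, among them the corepressor subunit Tbl1xr1 (-0.64) and the Mediator subunit Med1 (-0.54) lower and the coactivator Ncoa3 (0.58) higher, and 1 higher (Ncoa3, 0.67) and 1 lower (Tbl1xr1, -0.45) in knockout. Of 11 upstream regulators 1 was called higher (Foxo1, 0.45) and 6 lower in wild type, including the AMPK subunit Prkaa2 (-2.15), and 1 higher (Foxo1, 0.44) and 3 lower in knockout (Prkaa2, -1.57, Camk2d, -0.82, and Mef2a, -0.49).

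Between genotypes no gene of the 5 lists was called. Under ISO, 24 of 24 ERR and PGC-1 targets and 25 of 28 PPAR targets had positive knockout differences, with medians of 0.50 for each list against 0.01 over all genes. Those with the smallest p among PPAR targets were Pdk4 (1.07 ± 0.32), Ucp3 (1.10 ± 0.35) and Ucp2 (-0.92 ± 0.39), each at an adjusted p of 0.797 by limma. The cardiomyocyte markers had a median of 0.55 in the same comparison, and their part was not tested. In whole hearts by label 24 of 24 ERR and PGC-1 targets and 25 of 28 PPAR targets were negative, with medians of -0.25 and -0.31. There 10 of 10 cardiomyocyte markers were negative too, with a median of -0.31. Over all genes the median was -0.04 and 38.17% were positive. The part of the markers was not tested.

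For ISO against saline averaged over genotypes, 1 of 9 partners and 1 of 15 coregulators were called, beside 2.22% of all genes. Pparg rose by 0.65 (adjusted p = 0.0287 by limma) and Tbl1xr1 fell by 0.49 (adjusted p = 0.0432). The count of all genes called in this comparison changed greatly with the library left out, as given above. Whether the Pparg and Tbl1xr1 calls hold in those alternatives is not shown here. Ep300 (-0.50 ± 0.14) and Ncor1 (-0.49 ± 0.14), a histone acetyltransferase and a corepressor, were next among coregulators at adjusted p values of 0.0687 and 0.0772. All 24 ERR and PGC-1 targets had positive differences (median 0.71) and 24 of 28 PPAR targets did (median 0.48), none called, and the median of the cardiomyocyte markers was 0.72. In the same comparison 10 of 10 endothelial markers were positive with 3 called higher (median 0.58), 1 of 8 smooth muscle and pericyte markers was called higher, and 9 of 9 macrophage markers were negative with none called. Their part in the called genes was not tested.

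The genes whose log2 levels ran most like each regulator over the 14 cardiomyocyte libraries were named by Pearson's r, which is a description, since the libraries share groups and marker content. For Esrra they were Got2, Cryab and Coq9 (r = 0.995, 0.994 and 0.994), and for Esrrb the mitochondrial genes Echs1, Vdac1 and Prdx3 (r = 0.99, 0.989 and 0.987). For Esrrg they were Lmod3, Cacnb2 and Ptgr2 (r = 0.958, 0.956 and 0.956), and for Ppargc1a Atcayos, Lrrc2 and Optn (r = 0.975, 0.969 and 0.969). For Rxra they were Abhd4, Mvp and Crtap (r = 0.959, 0.951 and 0.941), for Nrf1 Ddx54, Arl6ip1 and Anp32b (r = 0.946, 0.946 and 0.945), for Ppard Rpl28-ps3, Anks1 and Thap7 (r = 0.897, 0.888 and 0.883), and for Ppara Efcab2 and Atp5s (r = 0.835 and 0.834). Without the 3 libraries highest in cardiomyocyte markers, the r of these pairs lay between 0.789 (Thap7 with Ppard) and 0.985 (Echs1 with Esrrb).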

How the data were processed

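The authors deposited 1 table of FPKM values for 46077 genes in 23 libraries. Per the submitters' processing notes, reads were aligned with HISAT2 2.0.5 and counted with featureCounts, and no source used here names the genome build. Coordinates are as deposited and match the GRCm38 annotation GENCODE M21 for 8 of the 9 genes (Ppard differs at its ends). The deposited gene lengths of Esrra (2539) and Ppard (4631) are shorter than the M21 exon unions (4387 and 7514), which raises their FPKM. Libraries are named by their header codes, grouped by the headers (WHO was read as whole heart), and carry no replicate number. A misaligned line that ended in the values of Ppara was left out, and for 27 genes whose symbol had turned into a date the symbol was looked up from the gene ID.

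FPKM gave back whole reads for 100% of 425620 values (tolerance 0.01 read), and the library size they imply is 0.43 to 1.88 times the assigned reads, so the deposited FPKM carry a scaling between libraries. Limma 3.58.1 (R 4.3.3, trend, two-sided) was fitted on log2(FPKM + 1) to genes at 1 FPKM or more in 3 libraries (cardiomyocytes) or 4 (whole hearts, tissues), and tested on simulated data. Single values were compared by exact permutation (scipy 1.17.1). The 9 genes, the target, partner, coregulator, upstream and marker lists and the tests were chosen with earlier results of these data known. From the lists all genes were counted, and called genes, or otherwise those with the smallest p, were named for the comparisons under ISO, for ISO averaged over genotypes and between tissues, a few of them, picked after their values were seen, where many were called. For each gene passing the filter the 3 genes of highest r were named, except 1 that is not reported here. Each result was recomputed with robust moderation, with a pseudocount of 0.1 or 0.5, with a 5 FPKM filter or none, and with equal totals outside the mitochondrial chromosome, median-of-ratios factors, removal of the scaling, limma-voom on recovered reads, only the groups compared, and leaving out each library. Chosen after seeing the data were the exon-union gene length, the marker covariate and leaving out the 3 cardiomyocyte libraries highest in cardiomyocyte markers or the 2 whole hearts highest in atrial markers.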

Additional observations from a re-analysis of the deposited data

Results flagged for a closer look

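The values of each gene in each group of 4 or 5 libraries were examined, which gave 36 sets that share libraries and are not independent. Of these sets 3 held a value whose gap to the nearest other library took up an unusually large part of the set's range, where chance alone gives about 1 in 20. Esrra reached 35.5 FPKM in a wild-type ISO cardiomyocyte library (PNXM648), while the other 3 had 15.9 to 16.9 FPKM. That library also had the highest cardiomyocyte marker level of its group, 8.49 against 6.90 to 7.41. Esrra reached 67.6 FPKM in a whole heart labelled wild type (PNXM241), while the other 4 had 52.2 to 56.0 FPKM, and the same heart had the highest cardiomyocyte marker level (9.45) and the lowest Ppara (4.04 FPKM), Esrrg (3.61 FPKM) and Ppargc1b (0.939 FPKM) of its group. Rxra was lowest at 10.2 FPKM in a whole heart labelled wild type (PNXM230), while the other 4 had 10.8 to 11 FPKM.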

How the results depend on the processing

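No paired analysis was possible because the columns carry no replicate numbers. Members within 1 SE of 0 were given no direction and are not compared here; for the others, 1049 of 1119 alternative values over 55 results kept their direction and side of the threshold. Counts of genes called are given first. Without a filter, 10 genes were called between saline genotypes and 125 for averaged ISO. A filter of 5 FPKM gave 129 for wild-type ISO, and 3944 (wild type) and 2779 (knockout) between tissues, with fewer genes tested. Equal totals outside the mitochondrial chromosome gave 0 for wild-type ISO and 30 for averaged ISO. Removing the scaling between libraries, which shifts the median of all genes by -0.70 (saline knockout), 0.56 (ISO knockout), -0.82 (wild-type ISO response), 0.44 (knockout ISO response), 1.29 (interaction), -1.04 and -0.67 (tissues, wild type and knockout), gave 5978, 5083, 7564, 9739 (interaction) and, between tissues in knockout, 9042 calls. With the marker covariate 32 were called for wild-type ISO, 22 for averaged ISO and 4506 between tissues in wild type. Without the 3 libraries of highest marker level 1 was called for wild-type ISO and 1 for averaged ISO. Fitting only the groups compared left 2 for wild-type ISO. Leaving out 1 library gave 0 to 222 for wild-type ISO, 1 to 1954 for averaged ISO (1 without PNXM664, 1954 without PNXM656), 0 to 1 for saline knockout, knockout ISO, averaged knockout and the interaction, and 0 to 2 for whole hearts.

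Members that changed sign are these. With equal non-mitochondrial totals, Rxra in the interaction was 0.01 and Ppard between tissues in knockout 0.00. With the scaling removed, in which members move with the median shifts above, Ppargc1a and Esrra in saline knockout were -0.20 and -0.39, Rxra in ISO knockout 0.57, Ppard, Esrra and Rxra in the wild-type ISO response -0.61, -0.37 and -0.55, Nrf1 in the knockout response 0.14, Rxra in the interaction 1.33, Esrra in whole hearts 0.01, Nrf1 between tissues -0.51 (wild type) and -0.27 (knockout), and Rxra there -0.69 (knockout). In the same setting Ppargc1a (0.85, adjusted p = 0.0351), Esrra (1.22, adjusted p = 0.0362) and Rxra (adjusted p = 0.0458) were called in ISO knockout by limma. Nrf1 was called lower there between tissues, in wild type (adjusted p = 1.4e-05) and in knockout (adjusted p = 0.0103, both by limma). With the marker covariate, Ppargc1a, Esrra, Esrrb and Esrrg in saline knockout were -0.07, -0.25, -0.14 and -0.08, Esrra in ISO knockout -0.02, Esrra and Esrrb in the wild-type response -0.14 and -0.23, Ppargc1a in the knockout response -0.02, Esrra and Esrrb in averaged knockout -0.14 and -0.01, Ppargc1a, Esrra and Esrrb in averaged ISO -0.18, -0.03 and -0.10, Ppard and Ppargc1a in whole hearts 0.09 and 0.18, and Ppard between tissues 0.08 (wild type) and 0.03 (knockout). In saline the marker means of the genotypes did not overlap, so the covariate cannot separate marker content from genotype there. Without the 3 libraries, Esrra in ISO knockout was -0.02. In the same setting Ppargc1a, Esrra and Esrrb in the knockout response were -0.01, -0.08 and -0.10, and Ppargc1a in averaged ISO -0.03. All 3 were ISO libraries and the highest in these genes, so leaving them out had to lower the ISO response. Without the 2 hearts, Ppard and Ppargc1a in whole hearts were 0.02 and 0.19. Nrf1 in the wild-type response ran from -0.32 to 0.00 over libraries left out. For the scaling and filter settings the cause was not tested beyond the shifts given. Depth limits Ppara and Ppargc1b in cardiomyocytes most, with as few as 15 and 14 reads.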
